A study of Mus musculus with 4 samples.

Results

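Proteoglycan and microfibril genes of the cardiac fibroblast were followed across 4 arrays of mouse left ventricle, through every probe set that the platform annotation assigns to Dcn, Lum, Bgn, Fmod, Mfap5, Fbn1, Eln, Vcan, Scara5 or Vim. Of these 10 genes, 9 had a probe set, out of 12393 genes on the array, and together they had 23 probe sets. Fbn1, the fibrillin gene that gives microfibrils their backbone, had no probe set in the annotation used here and was not analysed. Vim and Scara5 encode neither a proteoglycan nor a microfibril protein and are included as genes that fibroblasts express.

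The study asked what the cytokine IL-18 contributes to gene expression when pressure overload enlarges the heart. It set wild-type mice beside IL-18 null mice, each either sham-operated or banded, that is, operated to narrow the aorta. Every group was 1 array, hybridised with total RNA pooled from several animals: 5 mice for the sham pool of IL-18 null hearts, 6 mice for their banded pool, and 5 to 6 mice per group in the series design. The IL-18 null strain is labelled as on a C57BL/6 background, and its banded pool as transaortic constriction for 1 week. For the wild-type groups the sources used here give no strain, exact pool size or banding time, and for no group an age or sex. Since a group is a single pooled array, the differences have no replicate check, no error and, for a pair of arrays, no p-value.

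Small leucine-rich proteoglycans such as decorin, biglycan, lumican and fibromodulin bind collagen fibrils and govern their diameter and spacing, and versican is a large proteoglycan that binds hyaluronan and fills the looser matrix. Microfibrils are threads of fibrillin with attached glycoproteins, among them the product of Mfap5, and they form the scaffold on which elastin is laid down. In the heart, fibroblasts make most of these proteins, and pressure overload is known to enlarge the fibrous matrix between the muscle cells.

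The values are probe set intensities on a linear scale. A floor of 64 intensity units, which is 6 on the log2 scale, separates measured from unmeasured signal here: of the 23 probe sets 12 were at or above it on all 4 arrays, 15 on at least 1 array and 8 on none. Intensities of different probe sets cannot be compared with each other, so differences are taken for a given probe set between arrays. The summed intensities of marker lists, given below, add different probe sets, those under the floor included, so the brightest weigh most. A log2 difference of 1 is a 2-fold difference, and "at least" marks a pair with 1 array under the floor, whose value was raised to it.

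The arrays were not of equal quality. The 3′ bias index, the mean log2 signal of the 3′ probe sets of Gapdh, Actb and the bacterial control dap minus that of their middle probe sets, was 4.74 ± 0.14 for the sham and 0.72 ± 1.14 for the banded wild-type array (SD, n = 3 transcripts). For the IL-18 null arrays it was 3.37 ± 1.14 (sham) and 3.01 ± 1.47 (banded). Some middle probe sets of wild-type sham lay below the floor. With values raised to the floor its index was 3.04, a lower bound, while those of the other arrays stayed the same. Wild-type banded was the lowest array either way, and wild-type sham was the highest without the floor. The lower bound cannot rank wild-type sham against the IL-18 null arrays. Gapdh was above the floor with both probe sets on all 4 arrays. Its 3′ minus middle difference was 4.61 (sham) and -0.16 (banded) in wild type, and 2.73 (sham) and 1.66 (banded) in IL-18 null. The 3′ signal of the same controls was lowest on wild-type sham. For dap it was 7.56 (sham) and 10.83 (banded) in wild type, and 10.69 (sham) and 10.7 (banded) in IL-18 null, in log2. For Gapdh it was 11.0, 13.9, 13.39 and 13.58 in the same order. The part of the bias index and of this control signal in the differences below was not tested. Il18 itself lay below the floor on all arrays, at log2 values from 2.89 to 3.19, so it gives no check of the genotype labels. Cardiomyocyte markers were measured for 10 of 10 genes. The atrial marker Myl7 was at log2 values from 9.65 to 10.67. Of 19 fibroblast markers on the array, members left out, 13 were measured; Pdgfra was above the floor on all arrays, whereas Tcf21, Ddr2 and Thy1 were below it on all.

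Decorin showed its largest difference between the wild-type arrays. Dcn (chr10:97479500-97518163, GRCm38.p6), the most widely spread of the small leucine-rich proteoglycans and a binder of TGF-beta, had 1 probe set, with intensities of 1330.4 (sham) and 10343.6 (banded) in wild type, and 5804.8 (sham) and 7040.9 (banded) in IL-18 null. Wild-type sham was the low array, and the other 3 lay well above it. In bulk tissue, as for every gene here, more cells of a type and more RNA per cell cannot be told apart. With banding the wild-type value differed by 2.96 (7.77-fold) and the IL-18 null value by 0.28 (1.21-fold). IL-18 null minus wild type was 2.13 (4.36-fold) without banding and -0.55 with it. The wild-type banding difference and the sham genotype difference both subtract the wild-type sham array. That array had the highest 3′ bias index of the 4 without the floor, and with the floor its index is only a lower bound. It also had the lowest 3′ control signal, and the part of either in these differences was not tested.

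Biglycan had 3 probe sets, which ranked the arrays alike but differed in size. Bgn (chrX:73483601-73495936) encodes a close relative of decorin that carries a pair of glycosaminoglycan chains. Its brightest probe set, 1437889_x_at, read 1231.2 (sham) and 1966.6 (banded) in wild type, and 1545.3 (sham) and 2090.7 (banded) in IL-18 null. The probe set 1448323_a_at read 598.1, 2115.4, 1327.3 and 2922.3 in the same order. On 1416405_at the values were 177.6, 1204.9, 676.0 and 1792.7. On each of them wild-type sham was lowest, IL-18 null sham came next, and the banded IL-18 null array was highest. The banding differences were 0.68, 1.82 and 2.76 in wild type and 0.44, 1.14 and 1.41 in IL-18 null. The brightest probe set stayed within 2-fold in both genotypes and the other 2 were past it in both. Those 2 are annotated to the same transcript record and are not independent of each other. The brightest, which stands for Bgn in the counts by gene, is of a kind (_x_at) that can cross-hybridise. Without such probe sets Bgn is read from 1448323_a_at.

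Lumican differed little between genotypes. Lum (chr10:97565501-97572703), which encodes a keratan sulfate proteoglycan of collagen fibrils, read 1297.6 (sham) and 2116.6 (banded) in wild type, and 1123.6 (sham) and 2347.2 (banded) in IL-18 null. Both banded arrays were above both sham arrays. The banding difference was 0.71 (1.63-fold) in wild type and 1.06 (2.09-fold) in IL-18 null, and the genotype differences were -0.21 in sham and 0.15 in banded. The IL-18 null banding difference was just past 2-fold and was 0.96 after quantile normalization and after cyclic loess, and the genotype difference in banded was -0.04 after cyclic loess.

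Fibromodulin was close to the limit of measurement. Fmod (chr1:134037254-134048280), which encodes another keratan sulfate proteoglycan that binds collagen, had 6 probe sets, of which 5 were below the floor on every array, with intensities from 4.3 to 20.8. The remaining one, 1456084_x_at, read 73.3 (sham) and 13.4 (banded) in wild type, and 31.6 (sham) and 106.3 (banded) in IL-18 null. Wild-type sham and IL-18 null banded were therefore above the floor and the other arrays below it. Fmod could therefore count only as lower with wild-type banding and only as higher with that in IL-18 null. As bounds, the banding difference of Fmod was -0.20 in wild type and 0.73 for IL-18 null. These sizes are set by the floor: with a floor of 5 they were -1.20 and 1.73, and with no floor -2.45 and 1.75. This probe set too is of the _x_at kind, and none of the other 5 measured the gene.

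Versican stood out on the banded IL-18 null array, by 1 of its 2 measured probe sets. Vcan (chr13:89655309-89743027) read 76.9 (sham) and 105.9 (banded) in wild type, and 70.1 (sham) and 291.7 (banded) in IL-18 null on the probe set 1427256_at. IL-18 null banded was high and the other 3 arrays lay near the floor. The banding difference was 2.06 (4.16-fold) in IL-18 null and 0.46 in wild type, which was -0.15 after quantile normalization, and among banded arrays IL-18 null was higher by 1.46 (2.75-fold). The other measured probe set, 1421694_a_at, read 99.9, 131.3, 96.8 and 98.9 in the same order. On it the IL-18 null arrays were level, with a banding difference of 0.03, and wild-type banded was the highest array. The measured probe sets are annotated to different transcript records. A further probe set of the gene, 1427257_at, is annotated to the same record as 1427256_at and was below the floor on all arrays. It read 3.5, 10.1, 3.3 and 3.4 in the same order.

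Mfap5 was far higher with banding in both genotypes. Mfap5 (chr6:122513584-122529290), which encodes a small glycoprotein of microfibrils, read 142.4 (sham) and 1021.1 (banded) in wild type, and 280.6 (sham) and 1374.3 (banded) in IL-18 null. Both banded arrays lay far above both sham arrays. The banding difference was 2.84 (7.17-fold) in wild type and 2.29 (4.90-fold) in IL-18 null. Of the genes compared, 4.98% had a difference as high or higher in wild type, and 0.808% had one in IL-18 null. Its other probe set, 1449082_at, read 38.3, 111.3, 33.0 and 221.4 in the same order, so both sham arrays were below the floor. On that probe set the banded array was higher by at least 0.80 in wild type and at least 1.79 in IL-18 null.

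Elastin was measured on a single array. Eln (chr5:134702595-134747368), which encodes the protein that gives arteries their recoil, read 62.6 (sham) and 48.6 (banded) in wild type, and 37.3 (sham) and 179.3 (banded) in IL-18 null on the probe set 1420855_at. The first 3 arrays were below the floor, wild-type sham by a small margin. IL-18 null banded was higher by at least 1.49 than its own sham array and than the banded wild-type array, and wild-type banding gave no comparison. The other probe set, 1420854_at, was below the floor everywhere, between 4.3 and 4.9. The smooth muscle and pericyte markers on the array, of which 6 of 10 were measured, had a summed intensity from 10127 in IL-18 null banded to 12230 in wild-type sham. Myh11, Cnn1, Smtn and Cspg4 of that list were below the floor on all arrays.

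Vimentin, the intermediate filament protein of mesenchymal cells, was higher in both banded arrays, and its 3 probe sets differed in wild type. Vim (chr2:13574311-13582826) read 1954.4 (sham) and 5448.3 (banded) in wild type, and 3787.7 (sham) and 8674.3 (banded) in IL-18 null on the probe set 1450641_at. The probe set 1438118_x_at read 2846.5, 2916.2, 2010.2 and 5402.9 in the same order, and 1456292_a_at read 823.9, 1360.5, 531.0 and 2747.1. The banded IL-18 null array was highest on all 3 probe sets, and the lowest was wild-type sham on the first and IL-18 null sham on the others. In IL-18 null the banding differences were 1.20, 1.43 and 2.37, all past 2-fold. In wild type they were 1.48, 0.03 and 0.72, the first alone past 2-fold. Endothelial cells, smooth muscle and leukocytes express vimentin too, so its level in whole ventricle does not belong to fibroblasts alone.

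Scara5 was lower after banding in both genotypes. Scara5 (chr14:65666403-65764826), which encodes a class A scavenger receptor that takes up ferritin, read 486.3 (sham) and 206.5 (banded) in wild type, and 394.1 (sham) and 138.4 (banded) in IL-18 null. Both banded arrays were below both sham arrays. The banding difference was -1.24 in wild type, and it was -1.51 for IL-18 null. Of the genes compared, 7.16% had a difference as low or lower in wild type, and 0.746% had one in IL-18 null. IL-18 null minus wild type was -0.30 in sham and -0.58 in banded, and its other probe set was below the floor on all arrays.

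**Figure D1:**
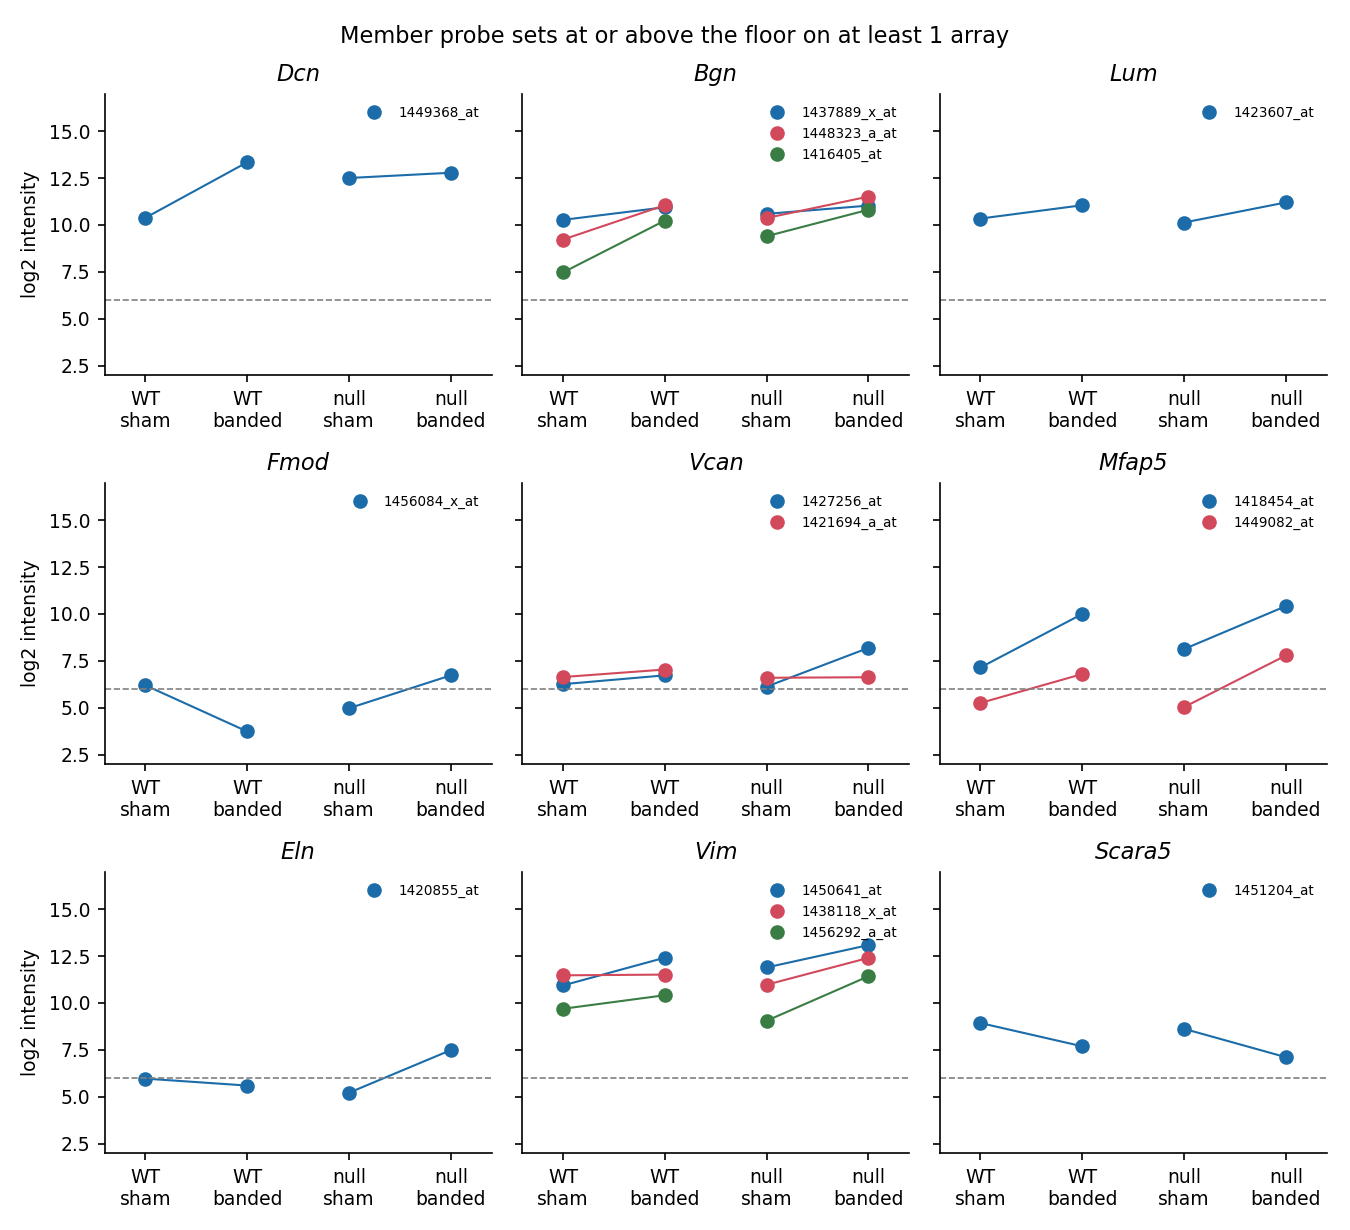
Log2 intensity (y axis) of the 15 member probe sets that reached the floor on at least 1 array, for each of the 4 arrays (x axis; WT, wild type; null, IL-18 null); points are single pooled arrays, lines join sham to banded within a genotype, colours are probe sets and the dashed line is the floor at log2 6. Mfap5, Lum and Bgn are higher and Scara5 is lower on the banded arrays. Vim is higher too, except that its probe set 1438118_x_at is nearly level in wild type (a difference of 0.03). Wild-type sham is the low array for Dcn, and IL-18 null banded is the high array for Eln and for 1 Vcan probe set.

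Counted by gene, with each gene represented by its brightest probe set, banding in wild type gave 3 of 8 measured members at least 2-fold higher (Dcn, Mfap5 and Vim) and 1 lower (Scara5). Of all 5040 genes compared, 21.7% were higher and 12.8% lower. The member median was 0.69, against -0.08 for all genes. Banding in IL-18 null gave 5 of 9 members higher (Lum, Mfap5, Eln, Vcan and Vim) and 1 lower (Scara5), where 6.98% of 4827 genes were higher and 2.53% lower. The member median was 1.06, against 0.08 for all genes. Mfap5 and Vim were past 2-fold upward and Scara5 downward in both genotypes. For Vim in wild type this held on 1450641_at alone (1.48), with 0.03 and 0.72 on its other probe sets. Eln reached the floor on the IL-18 null banded array alone, so it could enter that count only as higher and had no comparison in wild type. The counts of the genotypes therefore rest on unlike sets of members. Lum was on either side of 2-fold by a small margin (0.71 and 1.06), and Vcan rests on 1 of 2 measured probe sets. With a floor of 5, or with none, Fmod joined the lower members in wild type (2 lower) and the higher ones in IL-18 null (6 higher). Without _s_at and _x_at probe sets 4 of 7 members were higher in wild type and 6 of 8 in IL-18 null, Bgn among them at 1.82 and 1.14. The difference of the banding responses was not tested gene by gene, since each group is 1 array.

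Counted by probe set, wild-type banding gave 5 of 14 member probe sets at least 2-fold higher and 1 lower, where 24.9% of 7200 probe sets were higher and 11.5% lower. In IL-18 null 10 of 15 were higher and 1 lower, where 6.64% of 6743 were higher and 4.2% lower. Probe sets of a gene share its transcripts and are not independent of each other. Among all genes, the split in wild-type banding was 1096 higher and 647 lower, 852 and 1272 after quantile normalization, while cyclic loess gave 1238 and 426. The median of all genes moved from -0.08 to -0.42 and to 0.10 with it. In IL-18 null the split was 337 and 122, 262 and 153 after quantile normalization, while cyclic loess gave 281 and 148. The Mfap5 difference itself was 2.43 and 3.03 in wild type under those scalings, and 2.19 under either in IL-18 null.

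**Figure D2:**
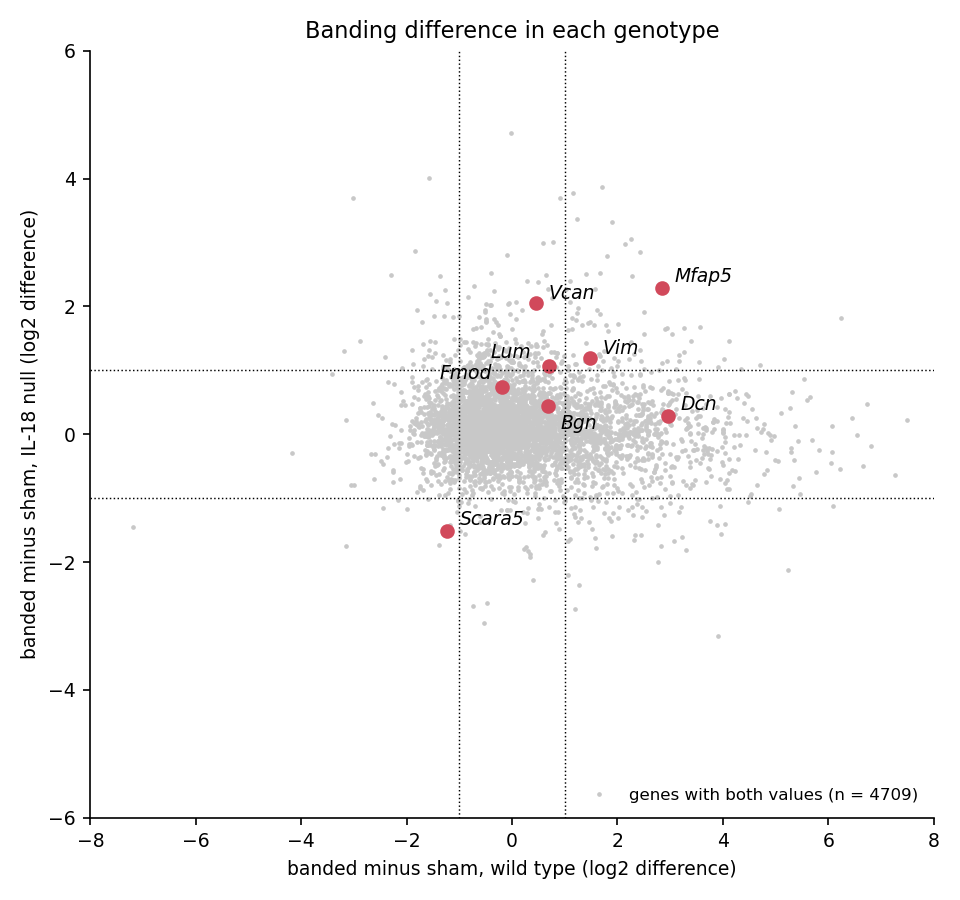
Banded minus sham log2 difference in wild type (x axis) and in IL-18 null (y axis), with values set to the floor; grey points are the 4709 genes with both values, red points the 8 members among them, and dotted lines mark 2-fold. Mfap5 and Vim lie past 2-fold on both axes in the upper right, Scara5 in the lower left, Dcn is far to the right at 2.96 and 0.28, and Vcan is high at 0.46 and 2.06. Each gene is read from its brightest probe set, and the other Vim probe sets were at 0.03 and 0.72 in wild type.

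**Figure D3:**
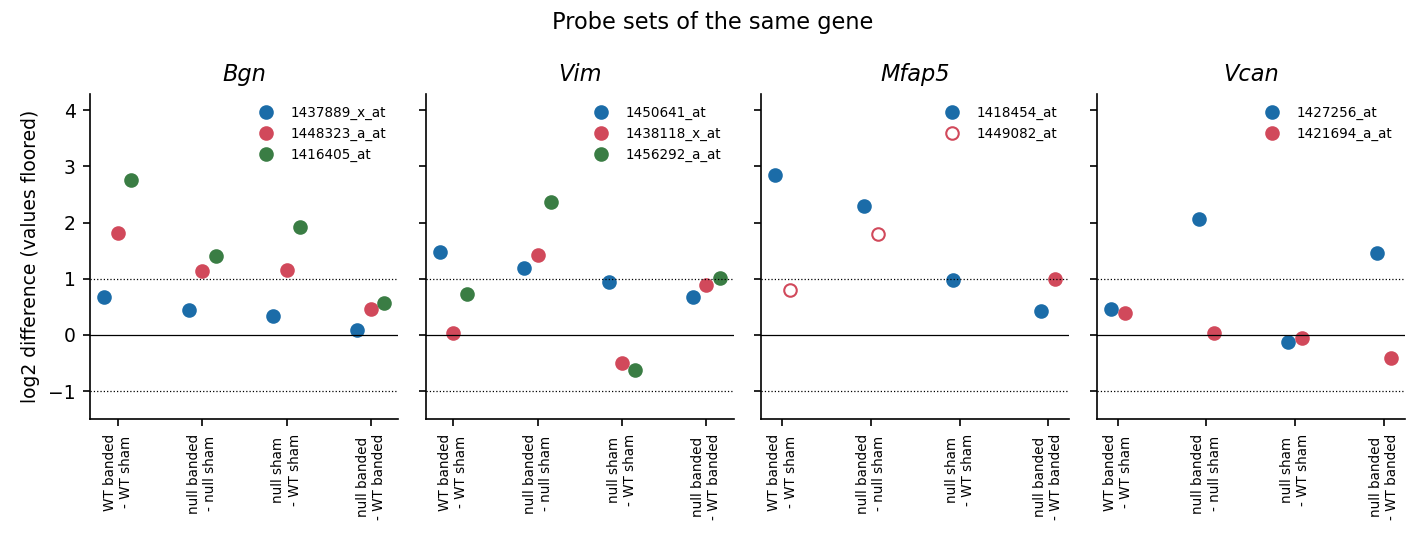
Log2 difference (y axis) of each measured probe set of Bgn, Vim, Mfap5 and Vcan in the 4 comparisons (x axis; WT, wild type; null, IL-18 null); open circles are bounds with 1 array below the floor, and dotted lines mark 2-fold. The Bgn probe sets keep the same order in all 4 comparisons, the Vim probe sets lie together past 2-fold only in IL-18 null banding, and the Vcan probe sets part on the IL-18 null banded array (2.06 and 0.03).

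The genotype comparisons reuse the arrays of the banding comparisons. Between the sham arrays, 1 member of 8, Dcn, was past 2-fold upward in IL-18 null and 0 were past it downward, where 16.3% of 4851 genes were higher and 6.29% lower. Mfap5 (0.98) and Vim (0.95) came just short of 2-fold, and the remaining members lay between -0.30 and 0.33. The member median was 0.10 and that of all genes -0.07. The Vim difference was -0.50 and -0.63 on its other probe sets, the opposite direction, whereas for Bgn the other probe sets were at 1.15 and 1.93. Among all genes the sham split was 789 higher and 305 lower, 668 and 637 after quantile normalization, while cyclic loess gave 856 and 210.

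Between the banded arrays, Eln (at least 1.49) and Vcan (1.46) were the 2 of 9 members past 2-fold upward in IL-18 null, and 0 were past it downward, where 5.7% of 4947 genes were higher and 7.74% lower. Eln entered through the IL-18 null banded array alone and could count only as higher. Vim was higher by 0.67, 0.89 and 1.01 on its 3 probe sets. Fmod, measured on the IL-18 null banded array alone of this pair, was higher by at least 0.73, and by 2.99 with no floor. Mfap5 was higher by 0.43 and, on its other probe set, by 0.99. On its other measured probe set Vcan was at -0.41, the opposite direction. Lum was higher by 0.15 and Bgn by 0.09, which were at -0.04 and -0.10 after cyclic loess, while Dcn was at -0.55 and Scara5 at -0.58. The member median was 0.43 and that of all genes 0.11. Among all genes the split was 282 higher and 383 lower, 319 and 345 after quantile normalization, while cyclic loess gave 195 and 474. Subtracting the wild-type from the IL-18 null banding difference gave a member median of -0.24 (0.16 for all 5158 genes), with a range from -2.68 for Dcn to 1.60 for Vcan.

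An additive fit over all 4 arrays (limma with an intensity trend; terms for surgery and genotype, which leave 1 residual degree of freedom) called 0 of 9 members for banding and 0 for genotype at an adjusted p of 0.05. It called 0% of 5158 genes for either term. At an unadjusted limma p of 0.05, 98 of the 5158 genes passed for banding and 13 of them for genotype. They included 2 of 9 members for banding, Mfap5 and Vim, and 0 for genotype. The residual of this fit is the disagreement between the banding differences of the genotypes, not a spread of replicates. The SE and p-values therefore do not measure variation between pools. Mfap5 had a banding term of 2.57 ± 0.58 (SE), with an unadjusted limma p of 0.00745 and a Benjamini-Hochberg adjusted p of 1.0, and was higher in both banded arrays. Vim, read here from 1450641_at alone, had 1.34 ± 0.35, with an unadjusted limma p of 0.013 and an adjusted p of 1.0. Scara5 had -1.37 ± 0.55 and Dcn 1.62 ± 0.69, with adjusted limma p-values of 1.0. Across the alternatives the lowest adjusted limma p of any member was 0.088 for banding, after quantile normalization, and 1.0 for genotype.

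Genes of the same structures as the members differed among themselves. Beside the list counts here and below, the shares over all genes with wild-type banding were 21.7% higher and 12.8% lower. With IL-18 null banding they were 6.98% and 2.53%. A count near these shares says nothing particular to a list. Of 20 other microfibril and elastic fibre genes on the array, 11 were measured. In wild type 3 of 10 were at least 2-fold higher with banding and 0 lower (Fbln1, Ltbp4 and Loxl1; median 0.53), and in IL-18 null 3 of 7 were higher and 0 lower (Ltbp3, Lox and Loxl1; median 0.88). Fbln1 reached the floor on wild-type banded alone and Lox on IL-18 null banded alone. Each could count only as higher and had no comparison in the other genotype. These counts of the genotypes therefore rest on unlike sets of genes. Loxl1, a cross-linking enzyme needed for elastic fibre upkeep, was higher by at least 3.26 with wild-type banding and by 1.67 with that in IL-18 null. Ltbp4, a latent TGF-beta binding protein of elastic fibres, was higher by 2.02 in wild type and differed by -0.19 in IL-18 null. Ltbp3, another of that family, differed by -0.33 and 1.43, and Fbln5, which links elastin to cells, by -0.98 and 0.88.

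Of the other small leucine-rich proteoglycans 7 were on the array and 4 measured. In wild type 1 of 4 was at least 2-fold higher with banding (Prelp, at 1.23) and 2 were lower (Ogn at -1.02 and Chad at -1.22), with a median of -0.93. In IL-18 null 1 was higher (Aspn, at 2.15) and 0 were lower, with a median of 0.10. Ogn, which encodes mimecan, had log2 intensities of 11.41 (sham) and 10.39 (banded) in wild type, and 10.54 (sham) and 10.71 (banded) in IL-18 null, and so was highest on the array where Dcn was lowest. The decorin and lumican genes lie side by side on chromosome 10, with 47.3 kb between them, followed by Kera and Epyc in the same family, yet their array profiles differed, by 0.94 in root-mean-square log2 distance.

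Among hyaluronan and large proteoglycan genes, 9 of 22 on the array were measured, and 1 was at least 2-fold higher and 0 lower in each genotype: Gpc1, a glypican, at 3.67 in wild type (0.12 in IL-18 null), and Prg4, which encodes lubricin, at 2.04 in IL-18 null (-0.50 in wild type). Of 18 genes for glycosaminoglycan chain synthesis, 6 were measured, with 2 of 6 higher (Fam20b and Extl3) and 1 lower with wild-type banding, and 1 of 5 higher (Ugdh) and 0 lower with that in IL-18 null. Extl3 reached the floor on wild-type banded alone, so it could count only as higher and had no comparison in IL-18 null. TGF-beta ligands, receptors and mediators had 6 of 12 measured, with 1 higher in wild type (Eng, 1.83) and 0 in IL-18 null, and 0 lower in either. Of other intermediate filament genes 3 of 11 were measured. Plec, which ties filaments to membranes, differed by 2.82 (wild type) and 0.35 (IL-18 null), and Nes by -0.96 and -0.52. Des, the muscle filament gene, differed by at least 6.45 and by 0.26. Its log2 intensity was 2.72 (sham) and 12.45 (banded) in wild type, and 10.14 (sham) and 10.4 (banded) in IL-18 null. Wild-type sham, its low array, was also the array with the lowest 3′ control signal. Of the class A scavenger receptor and iron genes 4 of 10 were measured. In wild type 2 of 4 were lower (Slc40a1 and Hamp) and 0 higher, and in IL-18 null 0 of 3 either way. Hamp reached the floor on wild-type sham alone, so it could count only as lower and had no comparison in IL-18 null. The iron exporter gene Slc40a1 differed by -1.61 (wild type) and -0.72 (IL-18 null), and Fth1, the ferritin heavy chain gene, by 0.07 and -0.18.

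Fibroblast markers outside the member list were mostly higher after banding. In wild type 9 of 13 were at least 2-fold higher with banding and 0 lower (median 1.23), and in IL-18 null 7 of 13 and 0 (median 1.37). Over all genes 21.7% were higher and 12.8% lower in wild type, and 6.98% and 2.53% in IL-18 null. Between sham arrays 5 of 12 were higher in IL-18 null and 0 lower, and between banded arrays 3 of 13 higher and 1 lower. Those shares over all genes were 16.3% and 6.29% between sham arrays, and 5.7% and 7.74% between banded arrays. Col1a1, the main fibrillar collagen gene, was higher by 2.43 and 2.85 with banding, Postn, which encodes periostin and marks activated fibroblasts, by 1.23 and 3.37, and Serpinf1 by 2.90 and 1.65. Pdgfra, a receptor that marks cardiac fibroblasts, had differences of -0.61 and -0.84. Pi16, a marker of adventitial fibroblasts, was higher by at least 2.73 in wild type and differed by 0.03, a bound, in IL-18 null. The summed intensity of the fibroblast list was 24018 (sham) and 33505 (banded) in wild type, and 25294 (sham) and 49288 (banded) in IL-18 null.

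Markers of other cell types moved as well, and their part in the member differences was not tested. Macrophage markers, all 10 measured, had 5 of 9 higher and 0 lower with banding in each genotype, and a summed intensity of 4361, 6746, 4196 and 9410 (wild type, sham then banded; IL-18 null, sham then banded). Endothelial markers had 5 of 9 higher in wild type and 0 of 7 in IL-18 null, with 0 lower in both and sums of 2797, 5326, 4160 and 3290 in that order. Pecam1 and Tie1 reached the floor on wild-type banded alone. With wild-type banding they could only be higher, and in IL-18 null they had no comparison. The same held for C1qa among the macrophage markers, while Cd68 reached the floor on IL-18 null banded alone. For both lists the counts of the genotypes therefore rest on unlike sets of genes. Smooth muscle and pericyte markers had 2 of 6 higher and 0 lower in each genotype. Cardiomyocyte markers had 1 of 10 higher (Nkx2-5) with wild-type banding and 0 with that in IL-18 null, 0 lower, and sums from 177236 to 217538. Atrial markers had 2 of 4 higher with wild-type banding and 1 with that in IL-18 null. Mesothelial and adipocyte markers were below the floor on all arrays, 4 genes each. Of 7 valve and cartilage-type markers 2 were measured, with Sox9, Acan and Comp below the floor, and of 3 Schwann cell markers 1 was.

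**Figure D4:**
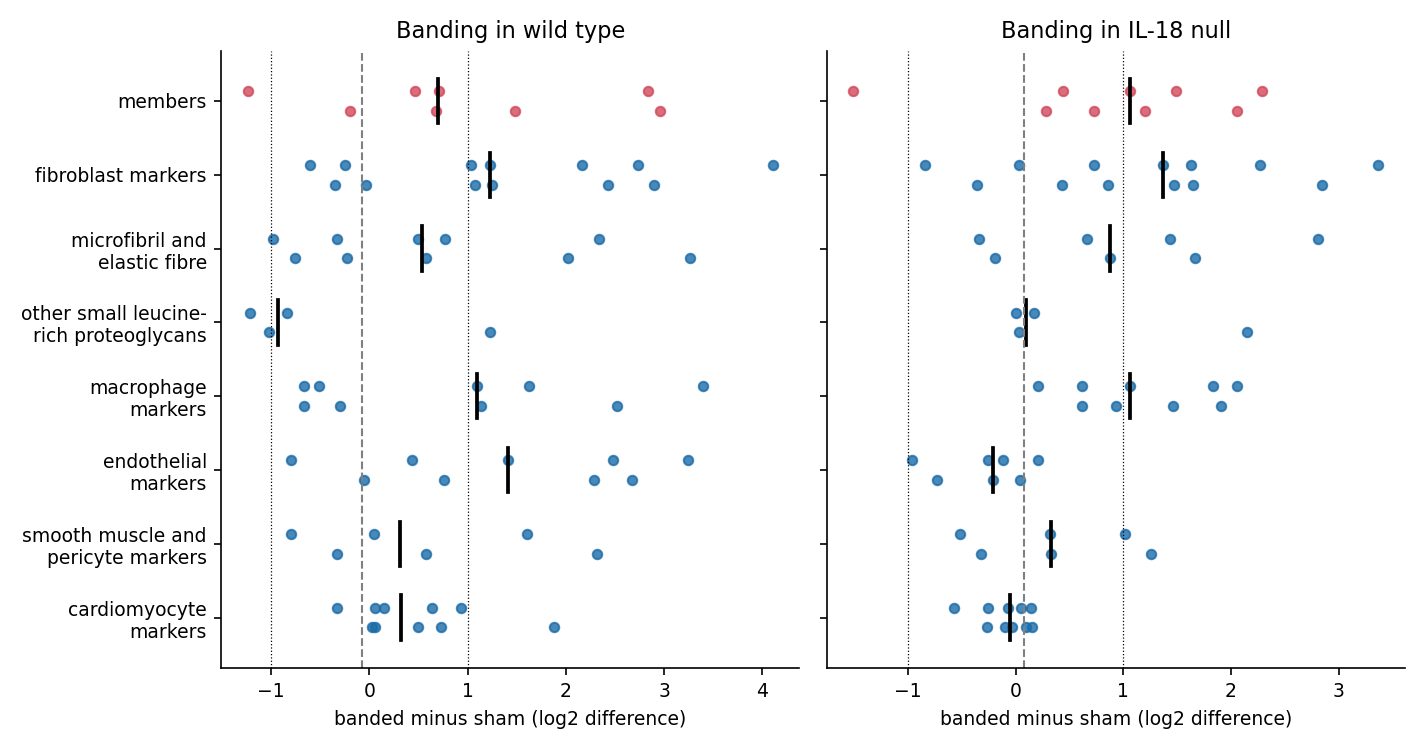
Banded minus sham log2 difference (x axis) in wild type (left) and IL-18 null (right) for the members (red) and for 7 gene lists (blue, rows), with values set to the floor; each point is a gene measured on at least 1 of the 2 arrays, black bars are medians, the dashed line is the median of all genes and dotted lines mark 2-fold. The member medians are 0.69 (left) and 1.06 (right), fibroblast markers have medians of 1.23 and 1.37, and endothelial markers 1.41 and -0.21. A gene below the floor on both arrays of a genotype is missing from that panel, so the panels can rest on unlike sets of genes.

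The profile of each member over the 4 arrays, centred on its own mean, was compared with those of the 3991 genes above the floor on all of them. With so few arrays and so many genes close matches are common, and the distances are a description. The nearest genes to Dcn were Plaat3 and Plec (root-mean-square log2 distance 0.068 and 0.070), to Bgn Ndufb7 and Prepl (0.039 and 0.040), and to Lum Pgd and Tgm2 (0.081 and 0.083). Those nearest to Mfap5 were Serpinf1 and Irf1, at 0.23 and 0.29, farther than for the other members. Vcan was nearest to Bhlhe40 and Emp1 (0.11 and 0.12), Vim to H2-Eb1 and Pvr (0.057 and 0.083), and Scara5 to Prxl2a and Adam19 (0.13 and 0.14). Each gene was read from its brightest probe set, which for Bgn was 1437889_x_at. With that choice, among the 7 members above the floor on all arrays, Bgn and Lum were closest, at 0.25. Mfap5 and Scara5 were farthest, at 2.1. The other Bgn probe sets had larger wild-type banding differences (1.82 and 2.76, against 0.68), and their profiles were not compared.

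The RefSeq promoter table (GRCm38.p6) held 5 of the 10 genes: Bgn, Fmod, Fbn1, Vcan and Vim. The 250 bases upstream of the gene start are shown for Bgn and Vim, whose probe sets were mostly higher in banded IL-18 null hearts, and for Fmod, which was near the floor, as a contrast. Capitals mark matches on either strand to TATAAA (the TATA box), GGGCGG (Sp1), TGANTCA (AP-1) or GGAATG (TEAD), where N is any base; CANNTG (the E-box) was searched too but is not marked. Bgn is at chrX:73483351-73483600 (plus strand), Vim at chr2:13574061-13574310 (plus strand) and Fmod at chr1:134037004-134037253 (plus strand).
Bgn: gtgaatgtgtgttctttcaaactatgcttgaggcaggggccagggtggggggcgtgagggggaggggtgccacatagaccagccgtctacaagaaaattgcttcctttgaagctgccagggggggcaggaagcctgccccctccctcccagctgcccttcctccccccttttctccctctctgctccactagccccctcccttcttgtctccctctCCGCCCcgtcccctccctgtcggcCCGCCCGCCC
Vim: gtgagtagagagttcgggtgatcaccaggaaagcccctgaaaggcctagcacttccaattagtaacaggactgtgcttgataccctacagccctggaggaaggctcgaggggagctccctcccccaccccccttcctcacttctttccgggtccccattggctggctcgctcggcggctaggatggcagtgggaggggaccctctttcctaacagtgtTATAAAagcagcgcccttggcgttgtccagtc
Fmod: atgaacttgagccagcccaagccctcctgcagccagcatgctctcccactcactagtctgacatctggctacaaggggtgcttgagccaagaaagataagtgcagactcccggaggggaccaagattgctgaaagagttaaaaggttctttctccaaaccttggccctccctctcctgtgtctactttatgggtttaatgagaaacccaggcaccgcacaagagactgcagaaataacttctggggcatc

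Bgn had 3 GGGCGG matches, the last 2 of them overlapping and starting 10 and 6 bases before the gene start, and no TATAAA. Vim had 1 TATAAA match, starting 32 bases before the gene start, and no GGGCGG. Fmod had neither. Of 32817 windows of the same length, 12.4% held TATAAA, 32.7% GGGCGG, 6.75% TGANTCA, 12.6% GGAATG and 66.2% CANNTG. The Fbn1 and Vcan windows, taken from the start in the promoter table, lie partly (Fbn1) or wholly (Vcan) within the gene span of the RefSeq gene table, so they are not upstream of the whole gene and are not shown. The Fbn1 window held 1 GGGCGG match and that of Vcan 2, and TGANTCA and GGAATG matched in 0 of the 5. The windows of Bgn, Vcan, Fbn1, Vim and Fmod were 64.4%, 62.4%, 59.2%, 58.4% and 51.2% G and C, against a median of 52.4%. A match describes letters in a window and says nothing of a factor's binding.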

How the data were processed

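Total RNA from left ventricle was measured on 4 biotin-label arrays, 1 pool per group, grouped by sample title. Each deposited value is a linear-scale intensity that the authors made with GCRMA, as the submitters' processing notes say; the sources used here give no version or settings. The table held 22690 probe sets: 64 controls, 20380 with 1 gene in the platform annotation, 691 with several and 1555 with none. Only those with 1 gene were used. The member identifiers were looked up in the RefSeq table (GRCm38.p6), and 9 of 9 matched. Values were put on the log2 scale and set to a floor of 6 (64 units). A gene, read from its brightest probe set by mean log2, entered a comparison if 1 of its arrays reached the floor. Genes were counted at 2-fold, with no test. The secondary test was limma 3.58.1 in R 4.3.3 (lmFit, eBayes with trend) on unfloored values, with Benjamini-Hochberg adjustment over 5158 genes. Both steps were run on simulated arrays with equal noise on all 4, set from the IL-18 null pair, and without 3′ bias. That run does not show how they perform on the wild-type pair.

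The members and lists were chosen with earlier results of these data known. The named genes are all member probe sets, up to 4 genes per list with the largest difference where both arrays reached the floor, Il18, Pdgfra, Tcf21 and Col1a1, and the 2 nearest profiles per member. Fbln1, Lox, Hamp, Extl3, Pecam1, Tie1, C1qa and Cd68, compared by bounds, lie outside that rule and were named after their values were seen. The same holds for marker genes named below the floor. Companion lists were other small leucine-rich proteoglycans, hyaluronan and large proteoglycans, Adamts enzymes, glycosaminoglycan synthesis, microfibril and elastic fibre, TGF-beta, intermediate filaments, and scavenger receptors and iron; marker lists covered 10 cell types. The planned protein comparison was not run, because no protein table was used here. Alternatives were quantile normalization, cyclic loess, floors of 5 and 7, no floor, averaging a gene's probe sets, every probe set on its own, no _s_at or _x_at probe sets, a 1.5-fold threshold, limma without the trend and an adjusted p of 0.1. Only 4 arrays limit the precision.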

Additional observations from a re-analysis of the deposited data

Results flagged for a closer look

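Fmod, by its only measured probe set (1456084_x_at), differed in opposite directions with banding in the genotypes: -0.20 for wild type against 0.73 for IL-18 null, each a bound because 1 array of the pair lay below the floor. The difference between the genotypes was not tested, since each group is 1 array.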

How the results depend on the processing

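Each group is 1 pooled array, so leaving out a replicate was not possible. No paired analysis was possible because each group has 1 array. Without replicates, a value was taken to have moved when it changed by more than 0.42, the robust spread of all gene differences between the IL-18 null arrays. Of 13 member differences past 2-fold, 9 stayed past it under the alternatives that give a value per gene (7 of floor, scaling, averaging and probe set kind, or 6 for Eln, Scara5 and Vcan, which were not measured with the mean of probe sets); the exceptions were Lum (IL-18 null banding, 0.96 at the lowest), Vim (wild-type banding, 0.75 with the mean of its probe sets) and both differences of Eln (0.49 with a floor of 7). None of the 13 changed sign under those. Read from another measured probe set of the gene, Vcan was at 0.03 (IL-18 null banding) and -0.41 (genotype in banded, a change of sign), Mfap5 at a bound of 0.80 (wild-type banding), and Vim at 0.03 and 0.72 (wild-type banding). With a floor of 5 the Fmod banding differences were -1.20 and 1.73, and without a floor -2.45 and 1.75. With the floor at 7 the sham genotype median was 0.64 and 1 member was higher in IL-18 null among banded arrays. After cyclic loess 3 members were higher in IL-18 null among sham arrays. With the mean of a gene's probe sets only 5 members stayed measured: the wild-type banding median was 1.75, 3 members were higher in IL-18 null banding, 2 in the sham and 0 in the banded genotype comparison, and the median difference of responses was 0.33. Counting every probe set gave 5 higher in wild-type banding, 10 in IL-18 null banding and 3 in the sham genotype comparison. Without _s_at and _x_at probe sets the wild-type banding median was 1.48, the sham genotype median 0.95 and its count 2. At 1.5-fold, 5 members were higher in wild-type banding, 3 in the sham and 4 in the banded genotype comparison. The additive fit called 0 members under every alternative, while over all genes it called 47 for banding and 7 for genotype after quantile normalization, against 0 without it and 0 under the other alternatives. Signal near the floor limits Fmod, Eln and Vcan.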

Other observations

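Some genes around the proteoglycans were high on the banded IL-18 null array and not on the banded wild-type array. Adamts1, which encodes a metalloproteinase that cleaves versican and aggrecan, had log2 intensities of 9.46 (sham) and 8.19 (banded) in wild type, and 7.72 (sham) and 9.99 (banded) in IL-18 null. Its banding differences were -1.27 (wild type) and 2.26 (IL-18 null); it was 1 of 2 measured Adamts enzymes, the other being Adamts5, at -0.69 and -0.25. Ugdh, which makes the UDP-glucuronate used for glycosaminoglycan chains, read 8.45, 7.73, 7.88 and 10.21 in the same order, with differences of -0.72 and 2.32. Aspn, which encodes asporin, read 8.24, 7.39, 7.11 and 9.26, with differences of -0.84 and 2.15. For all 3 the sham arrays also differed, by -1.74, -0.56 and -1.13 (IL-18 null minus wild type). Each group is 1 array, and the difference between the genotypes was not tested.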
